A study of Homo sapiens with 16 samples.

Results

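Collagen genes and the genes that fold, modify and crosslink collagen were described in SK-N-AS cells, a human neuroblastoma line in long-standing culture. The members were the rows of the deposited table with a name of the form COL, number, A, number, which gave 43 collagen chains, plus 10 genes of collagen processing, the chaperone SERPINH1 and the enzymes P4HB, PLOD1, PLOD2, PLOD3, LOX, LOXL1, LOXL2, LOXL3 and LOXL4. They made up 53 of 27043 rows. All 16 labelled samples are untreated SK-N-AS cells grown in serum-containing medium, detached with versene and sorted singly into plates for MARS-seq, a 3' single-cell RNA method. The columns of the table are barcodes with no sample name, so its 603 cells were read as 1 pool of 1 line, with no replicates, no second condition and no test.

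Collagens are secreted proteins in which chains wind into a triple helix. In the endoplasmic reticulum, prolyl hydroxylases stabilise the helix, lysyl hydroxylases prepare lysines for crosslinking, and SERPINH1 (HSP47) chaperones the folded molecule. Outside the cell, propeptides are cut off and lysyl oxidases crosslink the fibres. Type I collagen, the main fibrillar collagen of connective tissue, normally joins chains of COL1A1 with a chain of COL1A2. Neuroblastoma cells with mesenchymal features are known to make matrix.

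The cells held 1537576 counts, with totals per cell from 1000 to 42404 and a median of 2106. Of 364 distinct barcodes, 239 occurred in both of 2 runs of columns, of 316 and 287 cells, called here barcode sets 1 and 2. These sets come from the file and are not groups of the study. Levels are CPM, counts scaled to a fixed library size, over the pool with exact Poisson intervals at 95%, and shares of cells have exact Clopper-Pearson intervals at 95%. Both cover counting error only. As each count marks a transcript end, levels were not divided by gene length. All 9 markers of the sympathetic lineage had counts, with TBX2 at 407 CPM and HAND2 at 273 CPM. The 7 fibroblast markers also all had counts from FAP at 7.15 CPM to S100A4 at 4617 CPM. Of the endothelial, immune, Schwann cell precursor and erythroid markers, 2 of 4, 2 of 4, 3 of 4 and 3 of 3 were at 0. Their sums were 1.95, 19.5, 1.30 and 0 CPM, and the highest was PTPRC at 18.9 CPM.

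A count was found for 30 of the 53 members (56.6%), against 50.4% of all rows, and 23 members had more than the 3 counts taken here as the limit for a gene at 0. A level of at least 10 CPM was reached by 15 members (28.3%), against 29% of all rows, so the family as a whole lay near the background. The median level was 1.30 CPM for the members and 0.650 CPM for all rows. Of 43 chains, 22 had a count and 8 reached 10 CPM, while 8 of the 10 processing genes had a count and 7 reached 10 CPM. Together the chains summed to 1036 CPM (986 to 1088) and the processing genes to 2667 CPM (2586 to 2750). Sums were 986 and 1089 CPM for the chains in barcode sets 1 and 2, and 2619 and 2718 CPM for the processing genes.

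**Figure D1:**
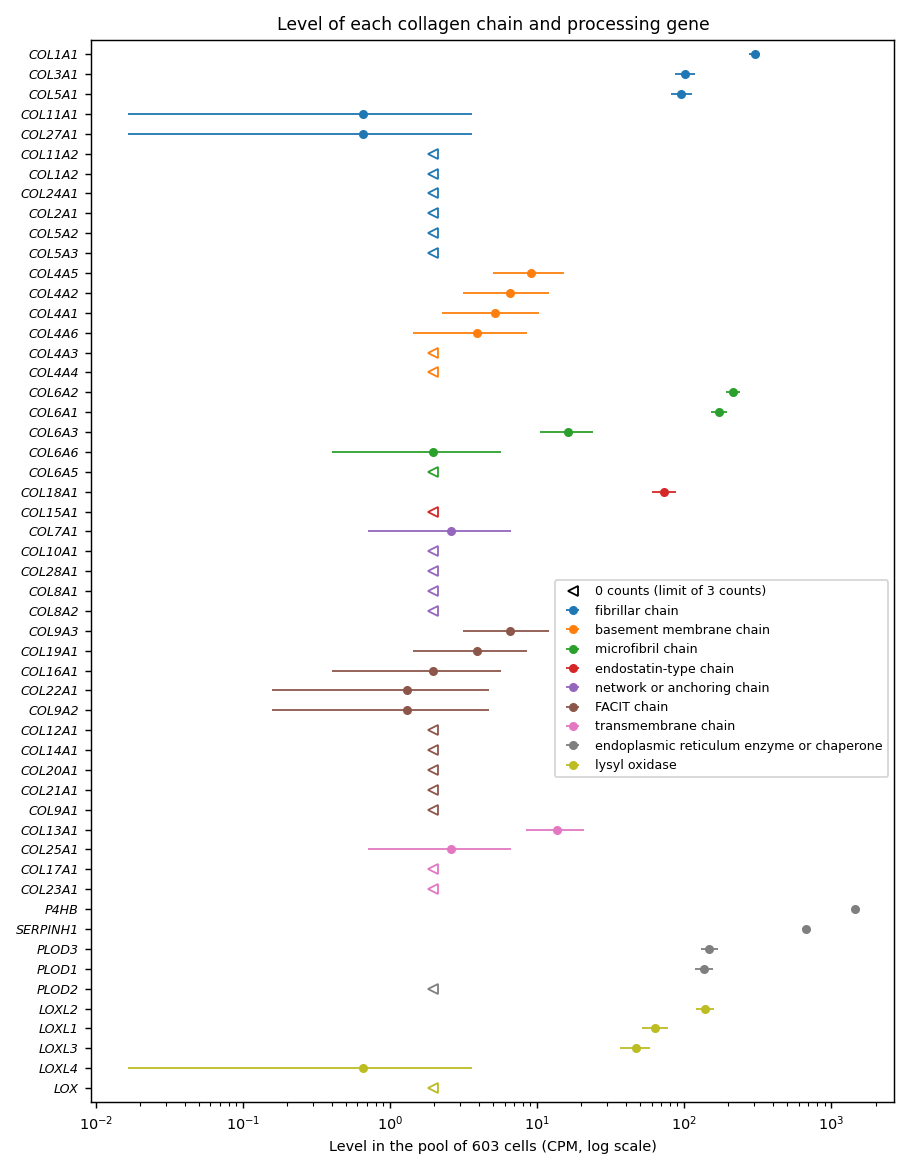
Level of each of the 53 members in the pool (CPM, log axis), ordered by role. Points are levels with exact Poisson intervals at 95%, and open triangles mark rows with 0 counts at the limit of 3 counts, 1.95 CPM. COL1A1 at 301 CPM tops the chains, and P4HB at 1456 CPM tops all members.

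Promoters are shown for 4 members that mark the ends of this range. They are P4HB, the highest member, PLOD2, an enzyme gene with 0 counts, COL6A2, the highest chain with an entry in the table used, and COL4A1, a barely detected gene whose promoter window overlaps that of its neighbour COL4A2 by 226 bases. Sequences are from RefSeq (build GRCh38.p14, not the build of the counts), run from 250 bases before to 50 after the gene start, 5' to 3' on the gene's strand, and capitals mark CCAAT or TATAA on either strand.
P4HB, chr17:81860486-81860785, minus strand: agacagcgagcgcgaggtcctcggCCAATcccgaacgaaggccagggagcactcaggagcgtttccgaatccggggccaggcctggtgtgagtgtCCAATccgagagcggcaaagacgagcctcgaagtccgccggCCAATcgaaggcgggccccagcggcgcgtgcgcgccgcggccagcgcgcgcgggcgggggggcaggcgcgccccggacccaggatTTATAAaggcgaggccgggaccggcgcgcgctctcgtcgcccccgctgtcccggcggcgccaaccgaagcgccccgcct
PLOD2, chr3:146161135-146161434, minus strand: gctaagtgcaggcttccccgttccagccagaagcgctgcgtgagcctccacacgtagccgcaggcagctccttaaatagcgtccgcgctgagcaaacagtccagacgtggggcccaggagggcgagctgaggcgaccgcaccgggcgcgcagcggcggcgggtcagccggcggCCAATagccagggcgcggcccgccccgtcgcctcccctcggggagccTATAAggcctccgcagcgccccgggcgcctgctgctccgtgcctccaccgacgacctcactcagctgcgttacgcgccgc
COL6A2, chr21:46097862-46098161, plus strand: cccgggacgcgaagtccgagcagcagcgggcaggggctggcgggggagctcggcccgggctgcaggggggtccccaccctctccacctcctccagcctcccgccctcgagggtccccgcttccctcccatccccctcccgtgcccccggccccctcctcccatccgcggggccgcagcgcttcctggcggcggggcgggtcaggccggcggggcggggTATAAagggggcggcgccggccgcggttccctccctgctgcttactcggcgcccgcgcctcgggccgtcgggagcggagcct
COL4A1, chr13:110307108-110307407, minus strand: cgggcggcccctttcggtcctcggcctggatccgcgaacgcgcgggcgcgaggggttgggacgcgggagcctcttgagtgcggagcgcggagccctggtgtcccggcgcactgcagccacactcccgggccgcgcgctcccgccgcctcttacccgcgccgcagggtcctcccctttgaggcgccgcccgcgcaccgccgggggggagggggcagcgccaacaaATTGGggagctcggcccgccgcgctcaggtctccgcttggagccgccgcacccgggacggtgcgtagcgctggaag

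The P4HB window held 3 CCAAT matches, and its last capitals are a palindrome that holds TATAA on each strand. The PLOD2 window held 1 CCAAT and 1 TATAA match. The COL6A2 window held a TATAA match and no CCAAT, and the COL4A1 window a CCAAT, on the opposite strand, and no TATAA. Of the 53 members, 40 had an entry. CCAAT was in 13 of these 40 windows (32.5%), against 35.7% of all 27305 promoters, TATAA in 7 (17.5%) against 21.1%, and the GC box GGGCGG in 24 (60.0%) against 44.6%. All motifs were searched on both strands, and a CCAAT on the opposite strand can share its last letters with GGGCGG. A match describes letters in a window, not a binding site.

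Among the fibrillar chains, 3 were clearly present. COL1A1, of type I collagen, stood at 301 CPM (274 to 329.8), from 463 counts. COL3A1, of type III collagen, a partner of type I in elastic tissues, stood at 101.5 CPM (86.2 to 119), and COL5A1, of type V collagen, which starts fibrils, at 95.6 CPM (80.8 to 112). All 3 were found in both barcode sets, with COL1A1 at 280 and 323 CPM, COL3A1 at 95.4 and 108 CPM and COL5A1 at 86.5 and 105 CPM. COL11A1 and COL27A1 had 1 count each.

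The usual partners of COL1A1 and COL5A1 were at 0. COL1A2 had 0 counts in 603 cells, for which the limit of 3 counts is 1.95 CPM, or 0.498% of the cells. Its exact Poisson interval reaches 2.40 CPM. COL5A2, which joins COL5A1 in the common form of type V collagen, and COL5A3 were also at 0, as were COL2A1, COL11A2 and COL24A1. With no count in any cell, co-expression of COL1A2 or COL5A2 could not be measured. A 0 in this table is not proof of silence. RPL7 and RPL39, which encode ribosomal proteins, were listed at 0 too, among 75 cytosolic ribosomal protein rows. PSMA6, a proteasome subunit gene that all cells need, was at 0 among 14 core proteasome rows. None of 73 mitochondrial ribosomal protein rows and none of 8 chaperonin subunit rows was at 0. EEF1A1, an abundant elongation factor gene, had 9 counts. Whether reads of COL1A2 or COL5A2 were lost in counting was not tested.

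Type VI collagen, which builds beaded microfibrils around cells, had counts for all 3 of its usual chains. COL6A2 stood at 214 CPM (191 to 238) and its chromosomal neighbour COL6A1 at 173 CPM (153 to 195). The row of COL6A2 also carries a cDNA name, so its counts could include that transcript. COL6A3, the large chain that completes the molecule, stood far lower at 16.3 CPM (10.5 to 24.0), from 25 counts. The alternative chains COL6A6 and COL6A5 had 3 and 0 counts. The level of COL6A2 was 182 CPM without the 35 cells of more than 5000 counts, which was below its interval.

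Basement membrane chains were near the limit of detection. COL4A1 and COL4A2, which form the common type IV network, had 8 and 10 counts, or 5.20 CPM (2.25 to 10.3) and 6.504 CPM (3.12 to 11.96). The chains of the other networks, COL4A5 and COL4A6, had 14 and 6 counts, and COL4A3 and COL4A4 had 0. The 14 COL4A5 counts split as 3 in barcode set 1 and 11 in set 2. COL18A1, a basement membrane collagen that carries the endostatin domain, was the exception at 72.8 CPM (60.0 to 87.6), with 85.2 CPM in set 1 and 59.9 CPM in set 2. Its relative COL15A1 was at 0.

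Of the remaining chains, only COL13A1, a transmembrane collagen of cell contacts, passed 10 CPM, at 13.7 CPM (8.45 to 20.9). The fibril-associated chains COL9A3, COL19A1, COL16A1, COL22A1 and COL9A2 had between 10 and 2 counts, and COL9A1, COL12A1, COL14A1, COL20A1 and COL21A1 had 0. COL7A1, of anchoring fibrils, and the transmembrane chain COL25A1 had 4 counts each. The network and other chains COL8A1, COL8A2, COL10A1 and COL28A1 and the transmembrane chains COL17A1 and COL23A1 were at 0.

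P4HB and SERPINH1, which act in the endoplasmic reticulum, stood above every chain. P4HB, the shared subunit of the prolyl hydroxylases and a disulfide isomerase of secreted proteins in general, was the highest member at 1456 CPM (1396 to 1518), the 90th highest row of the table. SERPINH1, the collagen chaperone, stood at 675 CPM (635 to 717). The lysyl hydroxylase genes PLOD3 and PLOD1 stood at 148 CPM (130 to 169) and 137 CPM (119 to 157), with overlapping intervals. PLOD2, the hydroxylase of the lysines in collagen telopeptides, had 0 counts.

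The lysyl oxidases were led by LOXL2 at 139 CPM (121 to 159), followed by LOXL1 at 63.7 CPM (51.7 to 77.7) and LOXL3 at 46.8 CPM (36.6 to 59.0). LOXL4 had 1 count and LOX, the founding member of the family, had 0. LOXL2 stood at 118 CPM without cells of more than 5000 counts.

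Other genes of collagen biology were read from lists of partners. As a reference for every list below, 50.4% of all rows had a count, and the median over all rows was 0.650 CPM. In the list of hydroxylation and folding, 21 of 22 genes had a count, with a median of 69.9 CPM. CALR, a general chaperone, led at 1649 CPM, followed by PDIA4 at 677 CPM and HSP90B1 at 424 CPM, the last on a joint row. The catalytic prolyl hydroxylase subunits were far below P4HB, with P4HA2 at 73.5 CPM (60.6 to 88.4), P4HA1 at 4.55 CPM and P4HA3 at 2.60 CPM. P3H2 was at 0. In the export list 13 of 14 had a count, led by KDELR2 at 517 CPM, SEC13 at 158 CPM and SAR1A at 133 CPM, with MIA2 at 0.

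Outside the cell the picture was uneven. Among 10 propeptide proteinases and enhancers, PCOLCE, which speeds cleavage of the C-propeptide, stood at 592 CPM (554 to 632), the proteinase gene BMP1 at 42.9 CPM and ADAMTS3, an N-propeptidase gene, at 5.20 CPM, while ADAMTS2, TLL1, TLL2, PCOLCE2, MEP1A and MEP1B were at 0. The fibril regulators had 14 of 18 with a count, led by SPARC at 1649 CPM, BGN at 210 CPM and LUM at 135 CPM, with PRELP, KERA, OGN and DPT at 0. Of the degradation list 13 of 17 had a count. TIMP1, a protease inhibitor, stood at 983 CPM, the gelatinase gene MMP2 at 847 CPM and TIMP2 at 290 CPM, and MMP3, MMP8, MMP9 and MMP13 were at 0.

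Basement membrane partners had 10 of 15 with a count, led by LAMC1 at 179.5 CPM, LAMB1 at 87.8 CPM and LAMA5 at 70.2 CPM on a joint row, and LAMA1, LAMA2, LAMA4 and HSPG2 were among those at 0. Collagen receptors had 12 of 13 with a count, led by CD44 at 235 CPM, ITGB1 at 193 CPM and the uptake receptor gene MRC2 at 149 CPM, with LAIR1 at 0. ITGA11 and ITGA2, whose integrins bind collagen, stood at 53.3 and 36.4 CPM. Regulators of collagen genes had 21 of 23 with a count, led by TWIST1 at 119 CPM, TGFB1 at 57.9 CPM and CEBPB at 54.6 CPM, with TGFB2 and CTGF at 0.

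How members were spread over cells was measured after each cell was thinned to 1100 counts, which kept 560 cells. At this depth 320 cells, 57.1% (52.9 to 61.3), had a count of some collagen chain. A single chain was seen in 216 cells, 2 chains in 76, 3 chains in 21 and more in 7. P4HB was found in 74.1% of cells (70.3 to 77.7) and SERPINH1 in 47.3% (43.1 to 51.6). COL1A1 was found in 18.6% (15.4 to 22.0), COL6A2 in 17.7% (14.6 to 21.1), COL6A1 in 15.4% and PLOD1 in 14.6%. PLOD3 was found in 13.04% of cells, LOXL2 in 12.1%, COL3A1 in 9.11%, COL5A1 in 7.86%, LOXL1 in 7.50%, COL18A1 in 6.07% and LOXL3 in 5.36%. Without thinning, COL1A1 had a count in 27.0% and COL6A2 in 34.2% of 603 cells.

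COL1A1 was found in fewer cells than its level would give. Spread evenly at its mean of 0.338 counts per cell, it would have been found in 28.6% of cells, against the 18.6% observed. COL6A2 would have been found in 18.7%, against 17.7%, and COL6A1 in 15.6%, against 15.4%. P4HB and SERPINH1 were also somewhat below even spread, at 79.8% and 52.2% if even, and the other 10 of the 13 members with the most counts had the even share inside their interval.

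**Figure D2:**
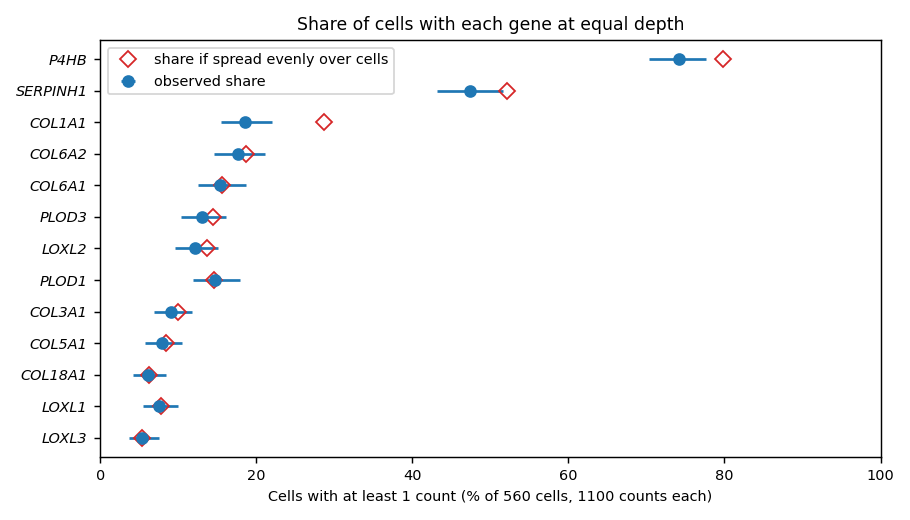
Share of the 560 cells with at least 1 count at equal depth (percent) for the 13 members with at least 50 counts, with exact binomial intervals at 95%. Diamonds give the share that even spread over cells would give, and for COL1A1 the diamond at 28.6% lies outside the interval of 15.4 to 22.0%.

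The counts per cell showed the same feature. COL1A1 had 1 count in 61 thinned cells, 2 counts in 29 and 3 or more in 14, up to 9. COL6A2 had 1 count in 83 cells, 2 in 15 and 3 in 1 cell. The Fano factor, the variance over the mean, was 2.86 for COL1A1, against 1.08 for genes of like mean, which placed its excess 14th among 2057 genes, and it ran from 2.43 to 3.24 over 20 further thinnings. That of COL3A1 was 1.30, that of COL6A2 1.11 and that of COL6A1 1.04. In the full counts, 10 cells held 30.5% of the COL1A1 counts, and the highest had 31, while 10 cells held 19.5% and 19.2% of those of COL6A2 and COL6A1. For COL3A1, 10 cells held 32.1%, with up to 17 counts in a cell, reached in the deepest cell, of 42404 counts. The 31 COL1A1 counts were in another cell. These shares of full counts were not taken at equal depth.

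**Figure D3:**
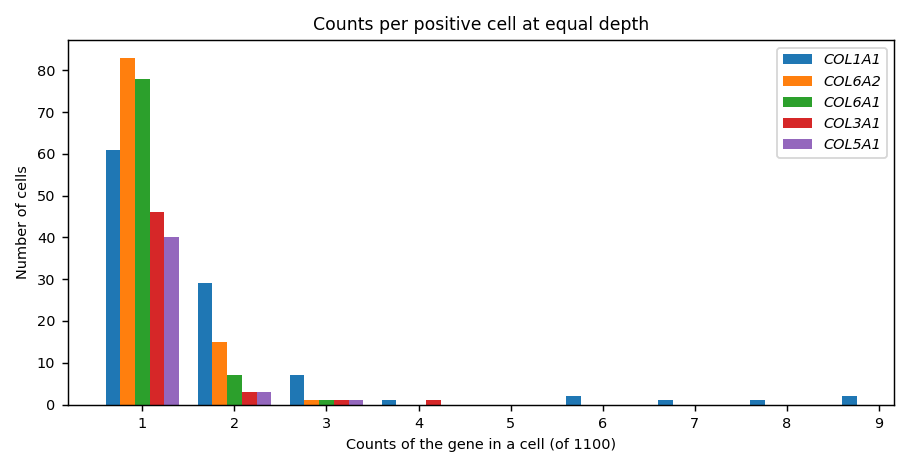
Number of cells (y axis) by the counts of a gene in the cell (x axis, of 1100) for 5 chains, cells at 0 left out. COL1A1 has a tail up to 9 counts, whereas COL6A2 and COL6A1 stop at 3.

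Cells with a pair of genes were compared with the number that the product of the shares gives. Of the type VI chains, COL6A1 and COL6A2 were found together in 20 cells, against 15.2 expected, a ratio of 1.32. Over 20 further thinnings that ratio ran from 0.88 to 1.68, with a mean of 1.198, and was above 1 in 15. COL6A2 was found in 23.3% (14.8 to 33.6) of COL6A1-positive cells and 16.7% (13.4 to 20.3) of COL6A1-negative cells, which overlap. COL6A3 met COL6A1 in 1 cell, against 0.921 expected, and COL6A2 in 1 cell, against 1.06 expected. In the 603 unthinned cells these 3 pairs were found in 88, 12 and 14 cells. COL4A1 and COL4A2 were found together in 2 of the 603 unthinned cells, and COL4A5 and COL4A6 in 0. COL9A2 and COL9A3 were together in 0 cells, and the other pairs of types IV, VIII, IX and XI had a chain at 0.

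COL1A1 was next set beside COL3A1 and COL5A1. COL3A1 was found in 9.62% (4.71 to 17.0) of COL1A1-positive cells and 8.99% of COL1A1-negative cells, which lies inside that interval, with 10 cells observed and 9.47 expected, a ratio of 1.06. Over 20 further thinnings this ratio had a mean of 1.27 and was above 1 in 18, and it was 1.51 in barcode set 2 alone and 1.74 with a minimum of 1500 counts per cell. COL5A1 was found in 11.5% (6.11 to 19.3) of COL1A1-positive and 7.02% (4.85 to 9.76) of COL1A1-negative cells, a ratio of 1.47. Of the 3 fibrillar chains, 84 cells had COL1A1 alone, 36 COL3A1 alone, 27 COL5A1 alone and 2 all 3. The observed over expected number of cells with COL1A1 was 1.25 for COL6A2, 0.69 for COL6A1, 1.00 for P4HB, 1.14 for SERPINH1, 0.74 for PLOD3, 0.92 for PLOD1, 0.87 for LOXL2 and 1.74 for COL18A1. Over 20 further thinnings the mean for COL6A1 was 1.05 and for LOXL2 1.31, so these turned direction.

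Among all 55 pairs of the 11 members with at least 100 counts, 37 had a ratio above 1, the median was 1.10 and Spearman's rho ran from -0.07 to 0.13 over 560 cells. These are weak values in sparse counts and come from 1 thinning. Pairs of other genes of like level were not measured, so whether 37 of 55 is more than usual was not tested. The 5 highest ratios were COL5A1 with COL18A1 at 2.25, LOXL2 with COL3A1 at 2.099, COL3A1 with COL5A1 at 1.75, COL1A1 with COL18A1 at 1.74 and LOXL2 with COL18A1 at 1.70. Their means over 20 further thinnings were 1.26, 1.41, 1.44, 1.59 and 1.74, lower than the first draw for the first 4. COL3A1 was found in 19.1% (10.6 to 30.5) of LOXL2-positive and 7.72% (5.52 to 10.4) of LOXL2-negative cells, but the ratio was 1.14 without cells of more than 5000 counts. The 5 lowest were COL6A1 with COL5A1 at 0.44, PLOD3 with COL18A1 at 0.45, COL6A2 with COL18A1 at 0.50, PLOD1 with COL18A1 at 0.60 and COL1A1 with COL6A1 at 0.69, with means over further thinnings of 0.67, 0.88, 1.34, 0.91 and 1.05.

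**Figure D4:**
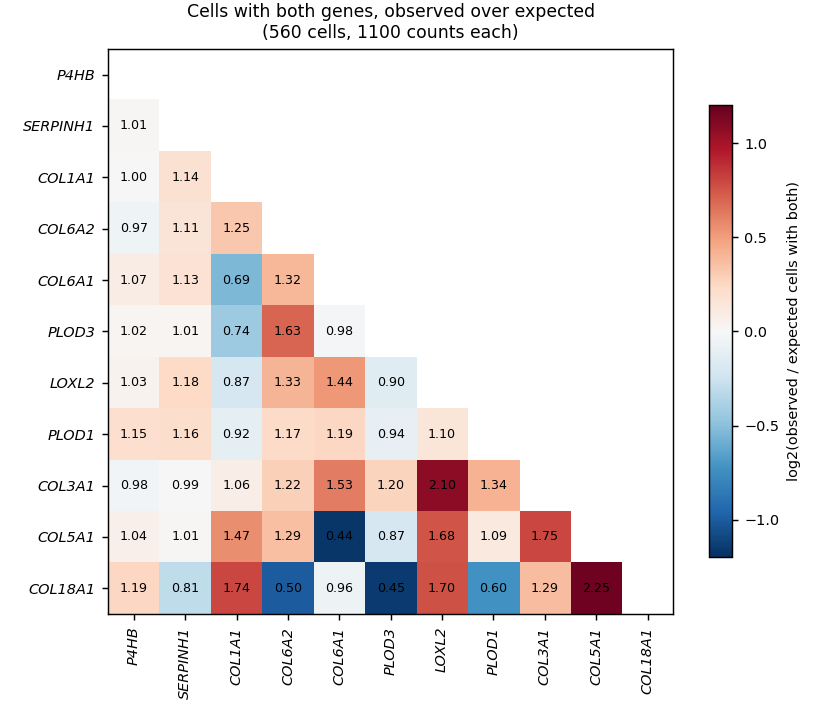
Observed over expected number of cells with both genes for the 55 pairs of 11 members (numbers in cells; colour, log2 scale) at equal depth. Pairs with P4HB lie between 0.97 and 1.19, a range limited by its presence in 74.1% of cells. The extremes are 0.44 for COL6A1 with COL5A1 and 2.25 for COL5A1 with COL18A1, from 3 and 6 cells with both genes.

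Across 2057 genes with a mean of at least 0.1 counts, the patterns most like COL1A1 by Spearman's rho over 560 cells were those of PFN1 (0.20), ATP6AP1 (0.16), SERPINB6 (0.16), PTX3 (0.15), VIM (0.15), TBCB (0.15), PTRF (0.14), SNRNP70 (0.14), PSMB6 (0.14) and MT2A (0.14). No collagen or processing gene was among these 10. The only other members that reached that mean were P4HB, SERPINH1, COL6A2, COL6A1, PLOD3, LOXL2, PLOD1 and COL3A1. COL5A1 and COL18A1, with means of 0.0875 and 0.0643, could not appear. An absence among so few of the 2057 genes says little about the family. All are weak, and cells share libraries and depth.

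Members were next compared between cells with and without COL1A1, by the log2 ratio of CPM with exact conditional binomial intervals over members of at least 50 counts. These intervals too cover counting error only. They treat counts as independent, so they are too narrow for a gene gathered in few cells, such as COL1A1. The 104 COL1A1-positive cells had 128 CPM of COL18A1, against 61.9 CPM in the 456 COL1A1-negative cells, a log2 ratio of 1.04 (0.44 to 1.62). It was the only one of 12 members past a log2 ratio of 1 upwards, against 0.798% of 4637 rows, and none was past it downwards, against 2.35%. Over the 12 members the median log2 ratio was 0.34 and 9 were above 0, beside a median of -0.03 over all rows tested. COL5A1 had 154 and 82.0 CPM in positive and negative cells (0.91, 0.37 to 1.43), LOXL2 198 and 127 CPM (0.64, 0.18 to 1.08), COL3A1 138 and 92.9 CPM (0.57, 0.01 to 1.10) and SERPINH1 826 and 642 CPM (0.36, 0.15 to 0.57). P4HB had 1527 and 1437 CPM (0.09, -0.07 to 0.24). Median totals were 2337 and 2195 counts, and their part in these ratios was not tested. Groups made within barcode sets 1 and 2 gave COL18A1 0.43 and 1.81 and COL5A1 0.34 and 0.69. SERPINH1 was at 0.10 with a minimum of 1500 counts per cell and LOXL2 at 0.12 with another thinning.

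The row of INS-IGF2, a readthrough gene that overlaps IGF2, split the cells into 90 positive and 470 negative. Of the 4 endoplasmic reticulum genes with a count, P4HB and SERPINH1 were lower in the positive cells, and PLOD3 and PLOD1 were not. P4HB had 1010 CPM in INS-IGF2-positive and 1535 CPM in negative cells (log2 ratio -0.60, -0.81 to -0.41), and SERPINH1 461 and 718 CPM (-0.64, -0.94 to -0.35). PLOD3 had 189 CPM in INS-IGF2-positive and 142 CPM in negative cells (0.42) and PLOD1 had 140.5 and 137 CPM (0.04). In groups made within barcode sets 1 and 2, P4HB was at -0.54 and -0.69 and SERPINH1 at -0.24 and -0.57. COL18A1 had 35.1 and 82.2 CPM (-1.23, -2.48 to -0.20), from 8 and 104 counts, the 1 member of 13 past a log2 ratio of 1 downwards, against 6.88% of 4637 rows, and 0 were past it upwards, against 3.43%. COL1A1 had 176 and 330.5 CPM (-0.91, -1.42 to -0.44), but 0.30 when groups were made at 2000 counts, so its direction was not stable. The 13 members had a median of -0.25, beside -0.01 over all rows tested, with 4 above 0. Median totals were 2069 and 2259 counts.

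Between the 186 cells richest and the 186 poorest in G2/M transcripts, which mark dividing cells (a cut through a continuous score, not cell types), 11 of 13 members had a log2 ratio below 0, with a median of -0.27, beside a median near 0 over all rows tested. None of 13 was past a log2 ratio of 1, against 3.71% of 4614 rows upwards and 2.06% downwards. P4HB had 1269 CPM in G2/M-rich and 1641 CPM in G2/M-poor cells (-0.37, -0.52 to -0.22), with -0.53 and -0.22 in groups made within barcode sets 1 and 2, and LOXL2 117 and 168 CPM (-0.52, -1.03 to -0.02). COL1A1 had 344 and 368 CPM (-0.10, -0.41 to 0.21). Of the 13 members, only P4HB and LOXL2 had an interval that excluded 0. Median totals were 2455 and 2100 counts. The score summed counts, and the highest genes of its list were HMGB2 at 1454 CPM and TUBB4B at 1052 CPM. The split was not repeated without them.

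Between the 186 cells richest and the 186 poorest in transcripts of a mesenchymal list without collagens, COL1A1 had 483 CPM in the rich and 124 CPM in the poor cells (1.96, 1.55 to 2.38), and it was found in 23.7% and 12.4% of these cells at equal depth. It was the 1 member of 13 past a log2 ratio of 1 upwards, against 1.77% of 4625 rows, and none was past it downwards, against 1.79%. Median totals were 2276.5 and 2174 counts, and the 13 members had a median of 0.20, with PLOD1 below 0 and PLOD3 at 0.00, beside a median near 0 over all rows tested. Groups made within barcode sets 1 and 2 gave COL1A1 1.52 and 2.53, both outside its interval. VIM was the highest gene of the list at 5649 CPM, and S100A10 came next at 2012 CPM. The ratio of COL1A1 was 0.22 when VIM was left out of the list, a check added after the values were seen. LOXL2 had 185 and 93.8 CPM (0.98, 0.46 to 1.52), and 0.47 without VIM. COL6A2 (0.68), COL3A1 (0.78) and P4HB (0.26) were also higher, but COL6A2 was at -0.14 without VIM, COL3A1 at -0.79 with another thinning and P4HB at -0.022 with groups made at 2000 counts. PLOD3 had 147 CPM in both groups.

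**Figure D5:**
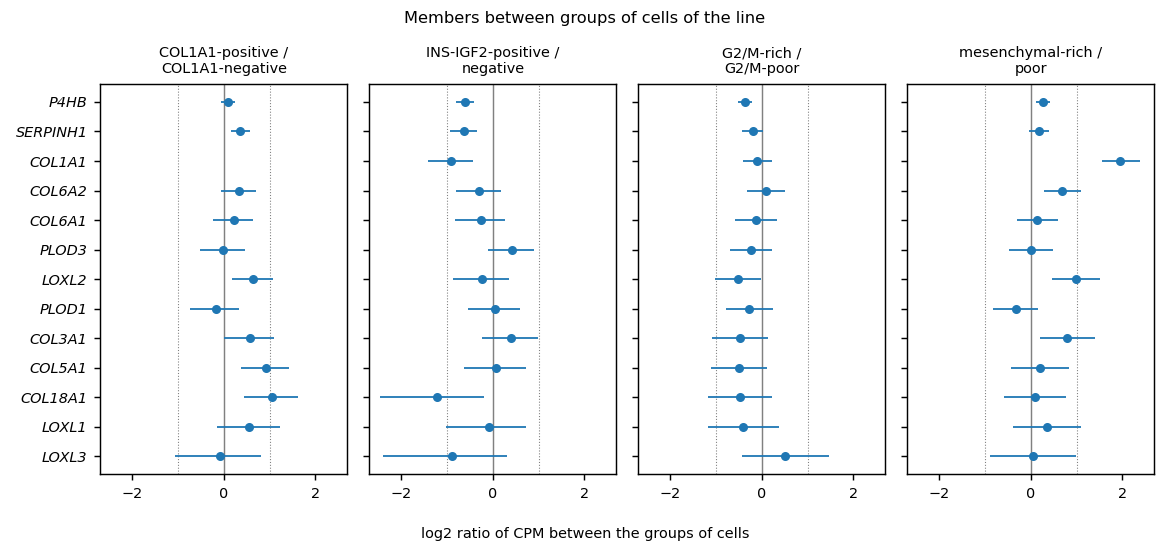
Log2 ratio of CPM of the 13 members with at least 50 counts between 4 pairs of cell groups, the first named group over the other, with exact conditional binomial intervals at 95%. Solid and dotted lines mark ratios of 0 and of 1 in size, and COL1A1 at 1.96 in the mesenchymal panel lies farthest from 0. That ratio was far smaller when VIM was left out of the list, as given in the text.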

How the data were processed

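MARS-seq libraries of single sorted SK-N-AS cells were sequenced and, per the submitters' processing notes, processed with Bowtie2 2.1.0 and hg19. The authors deposited whole-number counts per gene and cell. The counting tool, annotation, cell filter and whether counts are molecules or reads were not given in the sources used here. A row named unknown (2 counts, 0.00013% of all) was left out. All 603 cells passed a minimum of 500 counts, with 0 columns unused and no doublet caller, since cells were sorted singly.

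Members, lists and tests were chosen with earlier results of these data known. Named are all members, the 3 highest and the zero genes of each partner list, trimer pairs, pairs with COL1A1, the 5 highest and 5 lowest pair ratios, and the 10 genes most like COL1A1. Some genes that these lists hold are not reported here. ITGA2, ITGA11, P4HA1, P4HA2 and P4HA3 were added after their values were seen. Partner symbols were matched through RefSeq synonyms. Each cell was thinned to 1100 counts, drawn without replacement (43 shallower cells dropped), and groups of cells were summed with full counts. A gene at 0 has a limit of 3 counts. The scripts, in Python 3.11.15 with numpy 2.4.6, scipy 1.17.1 and pandas 2.3.3, were tested on simulated data.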

Additional observations from a re-analysis of the deposited data

How the results depend on the processing

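The number of members with a count, 30, stayed within a factor of 1.5 under all 7 alternatives run. Of 105 alternative levels 88 stayed in their interval, as did 126 of 133 pair ratios and 349 of 396 split ratios, while 50 of 160 shares left it. These counts do not rank the results by stability. Some share checks changed the depth or the threshold, which shifts shares by construction. Pair intervals were wide, and COL1A1 with COL6A1 stayed inside its interval while it went from 0.69 to a mean of 1.05 over further thinnings. Leaving ribosomal protein genes out of the total gave 1746 CPM for P4HB and 361 CPM for COL1A1. COL1A1 was found in 24.2% of cells at 2000 counts, in 27.0% without thinning and in 7.68% with 2 counts required, and any chain in 73.1%, 74.6% and 24.8%. In barcode sets 1 and 2 alone, the log2 ratio by COL1A1 of COL18A1 was 0.43 and 1.81, and that of COL1A1 by the mesenchymal list was 1.52 and 2.53. For COL1A1 that ratio stood at 1.35 with another thinning, 1.11 with cells split at the median and 0.22 without VIM. By INS-IGF2, COL1A1 was at -1.51 in set 1 and reversed to 0.30 at 2000 counts. By the mesenchymal list, COL3A1 reversed to -0.16 in set 2, -0.28 at 2000 counts and -0.79 with another thinning, COL6A2 to -0.034 in set 2 and -0.14 without VIM, and P4HB to -0.022 at 2000 counts. The causes were not tested. No paired analysis was possible because the study has 1 group and its columns carry no sample, so no replicate could be left out either. A gene at 0 may lie at up to 1.95 CPM by the limit of 3 counts, or 2.40 CPM by the exact Poisson interval. Of the 30 members with a count, 7 had 3 counts or fewer.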

Other observations

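The 35 cells with more than 5000 counts, which held 17.5% of all counts, had other levels of some members than the rest. COL6A2 stood at 364 CPM in these cells and at 182 CPM in the others, and LOXL2 at 237 and 118 CPM. COL6A1 stood at 256 and 155 CPM, COL18A1 at 111 and 64.7 CPM and COL3A1 at 152 and 90.7 CPM. Of the 41 COL3A1 counts in these cells, 17 came from the deepest cell alone. The same cell gave 22 of the 98 COL6A2 counts, 11 of the 64 LOXL2 counts and 13 of the 69 COL6A1 counts. In the deep cells COL1A1 stood at 263 CPM, against 309 CPM in the others, and SERPINH1 at 619.5 CPM, against 687 CPM. LOXL1 stood at 48.2 and 67.0 CPM and COL13A1 at 7.42 and 14.98 CPM. These rest on 71, 167, 13 and 2 counts in the deep cells, in that order. No interval was computed for any level in the deep cells, higher or lower, and no direction is read from these differences. LOXL3 stood at 48.2 and 46.5 CPM, and 7 of its 13 counts in the deep cells came from the deepest cell. These cells were picked by depth after the values were seen and are not a group of the study.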
